A study of Mus musculus with 3 samples.

Results

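Arg1-high cells are the liver monocytes in which transcripts of Arg1, the enzyme that splits arginine into ornithine and urea, made up at least 5 of every 10,000 unique molecular identifiers (UMIs, tags that count each captured transcript once). They were picked from single-cell libraries of monocytes sorted from injured mouse livers. A cell was kept if it had at least 500 genes detected and at most 10% of its UMIs from mitochondrial genes. It was then a member if it reached the Arg1 level, if its summed UMIs of the MHC class II genes H2-Aa, H2-Ab1 and H2-Eb1 stayed under 15 per 10,000, and if at most 2 of the 6 patrolling-monocyte genes Ace, Adgre4, Spn, Treml4, Ear2 and Ceacam1 were detected. By this rule 1830 of 16021 cells kept were Arg1-high. The rule used Arg1, class II and patrolling genes, so the levels of those 10 genes in these cells are given as a description and support nothing.

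Arginase-expressing monocytes and macrophages are known from wound repair, type 2 immunity and tumours. Arginase draws arginine away from nitric oxide synthesis and feeds ornithine into the making of polyamines and proline. Its gene responds to the interleukin-4 receptor and its factor STAT6, and also to hypoxia-inducible factor (HIF), which is stabilised when oxygen is low and switches on glycolysis, vascular growth factors and its own prolyl hydroxylases. In the liver after acetaminophen, Ly6C-high monocytes enter from the blood around the dying hepatocytes and later mature into macrophages that clear debris and promote repair.

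The study compared monocytes with and without COMMD10, a protein of the endosomal sorting machinery. Ly6Chi monocytes were sorted from livers of male C57BL/6 mice aged 8 weeks that had fasted for 12 h, had been given 300 mg/kg acetaminophen into the peritoneum, had chow back after 2 h, and were taken at 24 h. The 2 control libraries, numbered 1 and 3, are labelled as floxed Commd10fl/fl mice, and the knockout library, numbered 4, as LysMDCommd10, in which Cre expressed from the myeloid Lyz2 locus deletes the floxed gene. Whether each library came from 1 mouse or from several is not given, and the tests see only how these libraries vary, part of which may be technical. All groups carry the floxed allele and all received acetaminophen, and no uninjured liver was analysed here.

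One label went against the data before any result. The deposited gene list ends with an entry named cre, and the library labelled control 3 held 47 UMIs of it in 47 barcodes, or 0.645 counts per 1000000 UMIs (CPM), against 11 UMIs in 10 barcodes of knockout 4, or 0.363 CPM. Control 1 held 0 in 40092348 UMIs, which allows up to 0.0748 CPM. Commd10 stood at 17.5, 10.2 and 8.32 CPM over all barcodes of control 1, the library labelled control 3 and knockout 4. In the Arg1-high cells themselves it was at 15.8, 13.01 and 7.74 CPM, and its difference between knockout and controls did not pass the test (log2 -0.84 ± 0.32 SE, adjusted p = 0.0742). The 3' tags read the end of the transcript, and whether it lies outside the deleted part was not examined. Results are therefore given against each control library as well as against both, and values in threes follow the order control 1, the library labelled control 3, knockout 4. Barcodes shared between libraries numbered 26, 8 and 24 for the 3 pairs. None of them held a cre UMI in a cell that was kept, and those not kept were not checked.

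Arg1-high cells made up 9.06% of the cells kept in control 1 (373 of 4115, exact Clopper-Pearson 95% interval 8.20 to 9.98%). They made up 2.82% in the library labelled control 3 (210 of 7449, 2.46 to 3.22%). In knockout 4 they made up 28.0% (1247 of 4457, 26.7 to 29.3%). The knockout share lay above both control shares, and the control shares lay apart from each other by more than their counting intervals, which cover counting error only. With 1 knockout library and 2 controls, an exact permutation test over libraries cannot give a p below 0.333, and no other test of the share was made.

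**Figure D1:**
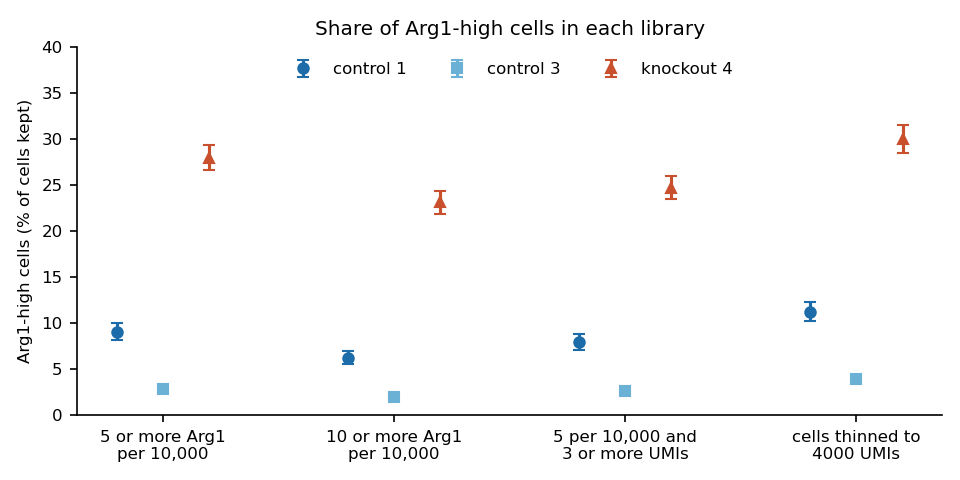
The vertical axis is the percentage of kept cells that were Arg1-high in control 1 (circles), the library labelled control 3 (squares) and knockout 4 (triangles), with exact 95% counting intervals, under the rule as given and 3 other settings. The knockout point is highest and the point labelled control 3 lowest in every setting shown.

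The order of the 3 libraries was the same at other Arg1 thresholds and at equal depth. With 10 Arg1 UMIs per 10,000 the shares were 6.22, 1.91 and 23.1%, and with at least 3 Arg1 UMIs in the cell they were 7.90, 2.56 and 24.7%. After every cell was thinned to 4000 UMIs, leaving out 627, 851 and 908 shallower cells, they were 11.2, 3.88 and 30.0%. Members held a median of 8863, 8903 and 6862 UMIs and 2800, 2764 and 2273 genes. The median Arg1 level within members was 16.04, 17.5 and 27.3 UMIs per 10,000, and 59.2, 64.8 and 65.5% of members had at least 10 Arg1 UMIs. Only 31, 15 and 94 members rested on a single Arg1 UMI. Before the other gates 519, 312 and 1486 cells, or 12.6, 4.19 and 33.3% of those kept, reached the Arg1 level. Of these, 56, 47 and 170 failed the class II gate and 109, 68 and 85 the patrolling gate, of which 19, 13 and 16 failed both.

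Hepatocytes also express arginase, and free RNA can enter droplets, so Arg1 was read beside other cell types' genes. Among lymphocytes, taken as kept cells with at least 3 T cell or 3 B cell markers, 12 of 31, 0 of 30 and 4 of 17 held any Arg1 UMI, and 0, 0 and 1 met the rule, at median depths of 3569, 2910 and 2745 UMIs. In control 1, 8 of 14 T cells held one, at a median of 16549 UMIs. Among all other kept cells 31.6, 13.5 and 54.3% held any Arg1 UMI, so a single UMI in control 1 was no more frequent there than in lymphocytes and is not read as expression. Albumin (Alb) stood at 12.3, 48.9 and 13.9 CPM in Arg1-high cells, against 10.7, 34.7 and 10.0 in Arg1-low cells, with the library labelled control 3 highest in each class. Of 12 hepatocyte markers 11, 12 and 11 had UMIs in Arg1-high cells, with summed levels of 134, 299.8 and 201 CPM against 137, 271 and 178 in Arg1-low cells. Trf was the highest marker in each of these sums, at 84.4, 106 and 138 against 97.1, 156 and 136. The sums therefore follow Trf more than the other markers. Cps1, which like Arg1 serves the urea cycle, was at 0 in the Arg1-high cells of control 1 and knockout 4 and present in the library labelled control 3. In the comparison of Arg1-high with Arg1-low cells given below, 10 of 11 testable hepatocyte markers had a positive difference and 3 rose, Alb by 0.43, Fabp1 by 2.77 and Hpx by 1.00 on the log2 scale. Without cells that held 2 or more hepatocyte markers, 10 of 16 testable alternative activation genes and 13 of 19 HIF targets rose there. In each list 1 gene fell. With all cells the risers were 12 of 17 and 13 of 19, against 9.96% of all genes. These lists include Ccl24, Hilpda, Egln3 and Vegfa, which were given with the rule.

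The defining genes of the sorted type were present in these cells. Ccr2, the chemokine receptor of recruited monocytes, was detected in 88.5, 90.5 and 86.2% of Arg1-high cells, and Ly6c2, which encodes the sorted antigen, in 60.3, 70.5 and 60.1%. All 8 Ly6Chi markers had UMIs in each library, and against Arg1-low cells 6 of them fell. F10, coagulation factor X, rose, at 764, 669 and 1289 CPM against 489, 451 and 817, and Chil3 stood at 2384, 2706 and 3644 against 2241, 4001 and 3589. Of 6 Kupffer cell markers, Timd4 was at 0 in the Arg1-high cells of all 3 libraries. Clec4f, Vsig4 and Marco were at 0 in those of both control libraries. The summed level of the list was 10.1, 7.29 and 5.78 CPM against 10.7, 4.82 and 2.87 in Arg1-low cells. Folr2 was the highest of the list in the Arg1-high cells of both control libraries, at 8.85 and 4.16. It rose by 1.66 on the log2 scale against Arg1-low cells. Of 9 neutrophil markers 5, 5 and 6 had UMIs, with summed levels of 480.2, 533 and 982 CPM against 1035, 571 and 2849 in Arg1-low cells. Ly6g was at 0 in every library's Arg1-high cells, as were Camp and Ngp, which were at 0 in Arg1-low cells too. Eosinophil markers summed to 0.316, 1.04 and 0.492 CPM, all from Ccr3, and basophil and mast cell markers to 0, 0 and 0.123. Summed T cell markers stood at 0, 2.08 and 2.09 CPM and natural killer and innate lymphoid markers at 0.316, 0 and 1.11.

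The comparison cells were the 1983, 3903 and 1899 Arg1-low cells that passed the same class II and patrolling gates. UMIs were summed per library and class, and the classes were compared within libraries with edgeR's quasi-likelihood test over 11636 genes. Of these, 1159 were higher in Arg1-high cells (9.96%) and 1329 lower (11.4%) at an adjusted p under 0.05. DESeq2 gave 735 (6.32%) and 722 (6.2%). In all 3 libraries alike, 23% of the genes had a higher level in Arg1-high cells and 27.6% a lower one. The 6 marker genes given with the rule were chosen with results of these data known. Levels are CPM, as above, and differences are log2 with the standard error.

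Alternative activation is the program that interleukin-4 and interleukin-13 induce in macrophages. Its genes had the highest median difference among the 16 lists of gene function, cell type markers left aside. Of 21 listed genes 17 could be tested, 12 rose and 1 fell, with a median of 1.50 against 0.0040 over all genes. The count includes Ccl24, which was given with the rule. Mrc1, the mannose receptor (chr2:14229392-14332057, plus strand, GRCm38), stood at 211, 209 and 144 CPM in Arg1-high cells. It stood at 25.7, 14.3 and 19.6 in Arg1-low cells, so that each library's Arg1-high level was above every Arg1-low level (3.27 ± 0.13, adjusted p = 4.15e-11). Ccl24, an eosinophil-attracting chemokine (chr5:135569937-135573049, minus strand), was at 1543, 861 and 1928 against 137, 96.0 and 168, and detected in 50.4, 37.6 and 47.8% of members. As a gene given with the rule, its difference of 3.41 is a description. Mgl2, a lectin of alternatively activated macrophages, was at 23.4, 10.4 and 22.7 against 2.44, 0.430 and 2.87 (3.38 ± 0.24, adjusted p = 3.90e-08).

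Further genes of the list that rose had smaller differences. Socs2, a feedback inhibitor of cytokine signalling, was at 10.7, 8.85 and 8.24 CPM against 1.65, 0.859 and 0.956 (3.02 ± 0.27, adjusted p = 4.28e-07). Cish, another such inhibitor, rose by 1.50 ± 0.16 and Egr2, a transcription factor of the late alternative program, by 1.62 ± 0.13. Socs3, an inhibitor of the same family listed with the inflammatory genes, fell by 0.36 ± 0.09. Pdcd1lg2, the PD-1 ligand PD-L2, rose by 2.24 ± 0.19. Retnla, the secreted protein that marks this program in mice, was rare: it was detected in 1.07, 1.90 and 1.60% of members, and stood at 18.3, 8.85 and 10.8 CPM against 5.37, 0.0330 and 0.558 (3.04 ± 0.49, adjusted p = 0.000207). Klf4 was the listed gene that fell, by 0.54 ± 0.12. Chil3 did not pass the test.

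Arginine handling moved in part. Slc7a2, which carries arginine into the cell, had the highest difference of any gene named by the rule, at 69.9, 26.0 and 59.2 CPM against 5.31, 2.15 and 7.17 (3.44 ± 0.15, adjusted p = 7.42e-11). Odc1, which turns ornithine into the first polyamine, was at 52.2, 55.2 and 32.2 against 33.0, 22.9 and 25.2 (0.74 ± 0.13, adjusted p = 0.000551). The spermine oxidase gene Smox rose by 0.52 ± 0.10 and the spermidine synthase gene Srm by 0.50 ± 0.13. Of the 17 testable genes of this list other than Arg1, 6 rose and 1 fell, against the 9.96 and 11.4% of all genes.

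HIF targets and glycolysis were both higher in Arg1-high cells. Of 23 listed HIF targets outside glycolysis 19 could be tested, and 13 rose while Ddit4 fell (median 0.52). Hilpda, which coats lipid droplets and blocks their breakdown (chr6:29272488-29275446, plus strand), stood at 123, 95.2 and 311 CPM against 39.1, 27.9 and 77.5. Egln3, an oxygen-sensing prolyl hydroxylase induced by HIF (chr12:54178981-54203860, minus strand), stood at 22.8, 29.1 and 91.6 against 9.40, 8.39 and 37.0. Vegfa, the vascular growth factor, stood at 39.5, 50.5 and 97.0 against 22.9, 13.7 and 29.2. These 3 were given with the rule, and their differences of 1.85, 1.44 and 1.50 are a description. Each was higher in the Arg1-high class of every library, while the knockout's Arg1-low level of Egln3 exceeded both controls' Arg1-high levels.

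Of the list's other genes, 10 rose. Bnip3, a mitophagy receptor, rose by 1.00, Fam162a by 0.94 ± 0.08 and the oxidative folding enzyme Ero1l by 0.89. In glycolysis and lactate transport 15 of 21 testable genes rose and 0 fell (median 0.49). Ldha, which makes lactate, was at 1296, 1273 and 1935 CPM against 915, 824 and 1205 (0.62 ± 0.07, adjusted p = 2.94e-06), and Slc16a3, which exports it, at 233, 231 and 549 against 156, 168 and 348 (0.59 ± 0.08, adjusted p = 2.43e-05). Fitted without the library as a block, 1 gene of each list passed. The 3 genes given with the rule are counted in the HIF list.

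Promoters of 4 of these genes are shown because HIF targets moved together between the classes and again between the libraries. They are the 250 bases before the RefSeq start (GRCm38.p6), 5′ to 3′ on the gene's strand, with the core in capitals: ACGTG or GCGTG on the shown strand or, as CACGT or CACGC, on the other, overlapping matches merged.
Bnip3: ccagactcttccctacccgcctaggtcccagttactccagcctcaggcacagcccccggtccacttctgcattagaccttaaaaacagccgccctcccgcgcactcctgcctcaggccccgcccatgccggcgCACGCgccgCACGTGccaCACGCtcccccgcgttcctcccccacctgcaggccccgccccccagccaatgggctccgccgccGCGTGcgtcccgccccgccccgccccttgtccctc
Ankrd37: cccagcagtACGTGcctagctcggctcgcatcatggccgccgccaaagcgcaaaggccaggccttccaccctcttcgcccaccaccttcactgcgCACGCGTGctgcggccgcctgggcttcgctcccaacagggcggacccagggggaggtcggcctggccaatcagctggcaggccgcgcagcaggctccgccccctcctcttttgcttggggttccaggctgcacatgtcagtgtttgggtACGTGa
Egln3: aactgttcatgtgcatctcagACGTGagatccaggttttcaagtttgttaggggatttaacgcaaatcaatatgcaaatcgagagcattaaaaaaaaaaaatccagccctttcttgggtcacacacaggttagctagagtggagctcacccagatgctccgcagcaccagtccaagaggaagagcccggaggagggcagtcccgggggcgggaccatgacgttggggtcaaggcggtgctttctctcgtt
Slc2a1: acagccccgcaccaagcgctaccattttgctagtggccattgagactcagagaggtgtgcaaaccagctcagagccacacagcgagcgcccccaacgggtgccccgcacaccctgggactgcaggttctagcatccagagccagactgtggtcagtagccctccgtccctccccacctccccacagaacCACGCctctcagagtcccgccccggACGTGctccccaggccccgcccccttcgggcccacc
The Bnip3 stretch is chr7:138909507-138909756 on the minus strand with 5 matches, Ankrd37 chr8:45999851-46000100 on the minus strand with 4, Egln3 chr12:54203875-54204124 on the minus strand with 1, and Slc2a1, the glucose transporter GLUT1, chr4:119108495-119108744 on the plus strand with 2. Of the HIF list 18 genes matched the table by symbol, and 14 (77.8%) held a core, as did 16 of 22 glycolysis genes (72.7%) and 7 of 16 alternative activation genes (43.8%). Over all 27025 promoters of the table the share was 38.6%. The windows of Hilpda and Vegfa held none, and a match describes letters, not binding.

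Repair genes, chemokines and lipid genes were also higher. Of 26 testable genes for repair, matrix and growth factors 17 rose and 3 fell. The risers include Vegfa and Thbs1, which were given with the rule, and the fallers' share of 11.5% lies at the 11.4% of all genes. Spp1, the matrix protein osteopontin, was at 2137, 1821 and 2501 CPM against 776, 468 and 656 (1.80 ± 0.09, adjusted p = 4.19e-10), and Fn1, fibronectin, at 2174, 2262 and 2901 against 1189, 1314 and 1411 (0.91 ± 0.07). The heparin-binding proteins Sdc4 and Sdc1 rose by 2.52 ± 0.09 and 1.95 ± 0.13, and the growth factor gene Hbegf by 3.09 ± 0.32 from 1.83, 1.75 and 5.02 CPM. Thbs1, thrombospondin 1, a marker given with the rule, differed by 0.55 as a description: it stood at 305, 791 and 1909 in Arg1-high cells against 289, 608 and 896 in Arg1-low cells. Its level followed the library more than the class.

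Of 18 testable chemokines 13 rose, Ccl24 included, and 1, the lymphocyte product Ccl5, fell. Ccl7, which draws monocytes through CCR2, was at 859, 757 and 847 CPM against 179, 160 and 181 (2.25 ± 0.07, adjusted p = 1.21e-12). Its level was close across the libraries within each class. Ccl2, its neighbour and partner, rose by 1.22 ± 0.07. The neutrophil attractant Cxcl3 was at 49.3, 66.6 and 551 against 8.66, 9.12 and 69.2 (2.87 ± 0.11, adjusted p = 1.53e-11). Pf4 and Ppbp, chemokines that platelets store, rose by 2.34 ± 0.17 and 2.54 ± 0.27. Other platelet markers did not follow: Gp1bb was at 0 in the Arg1-high cells of all 3 libraries, and Itga2b and Gp9 were detected in 0 to 0.476% of members. Of 22 lipid droplet and lipid-associated macrophage genes 17 rose and 1 fell, led by the fatty acid receptor Cd36 at 386, 322 and 464 against 85.7, 54.4 and 89.6 (2.38 ± 0.08).

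The genes of fresh blood monocytes moved both ways, more of them lower. Of 19 testable genes of Ly6C-high identity 10 fell (52.6%) and 5 rose (26.3%), against 11.4 and 9.96% of all genes. The risers were Fn1 by 0.91, F10 by 0.64, Fcgr1 by 0.58, Cd14 by 0.47 and Thbs1, which was given with the rule. Plac8 stood at 654, 842 and 912 CPM against 1549.7, 2175 and 2251 (-1.29 ± 0.06, adjusted p = 5.44e-10). Ly6c2 stood at 372, 384 and 437 against 701, 796 and 894 (-0.99 ± 0.07, adjusted p = 2.50e-08), while Ccr2 fell by only 0.19 ± 0.06. Neutrophil-like genes fell in 10 of 14 testable cases and rose in none, among them S100a8 by 0.91 and the granule protease gene Prtn3 by 2.16 ± 0.17. In the library labelled control 3, however, S100a8 was higher in Arg1-high cells, at 342 against 306 CPM. Interferon-response genes fell in 7 of 26 and rose in 1, and without knockout 4 they fell in 12 and rose in 0.

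Of 19 testable macrophage maturation genes 10 rose and 3 fell, a share of fallers (15.8%) near the 11.4% of all genes. The complement genes C1qa, C1qb and C1qc rose by 0.83 ± 0.11, 0.74 ± 0.08 and 0.89 ± 0.10, and Ms4a7 by 1.34 ± 0.08, while Cx3cr1, Selenop and Id3 fell by 0.69, 0.65 and 0.44. Cell cycle genes fell in 7 of 14 testable cases, with Ccnb2, a mitotic cyclin, at 1, 0 and 2 UMIs in all Arg1-high cells. Without knockout 4 only 3 cell cycle genes fell, and within the library labelled control 3, 6 of 12 were higher in Arg1-high cells (median 0.0049). Immunoglobulin and T cell transcripts were lower as well: Igha stood at 3.48, 1.56 and 0 CPM against 137, 66.1 and 0.239, and Igkc fell by 4.24. Without the 61, 97 and 23 Arg1-low and 1, 3 and 2 Arg1-high cells that held at least 2 lymphocyte markers, and without cells with at least 4 neutrophil markers, the differences of Igha and Igkc were 0.24 and 0.44 and did not pass.

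**Figure D2:**
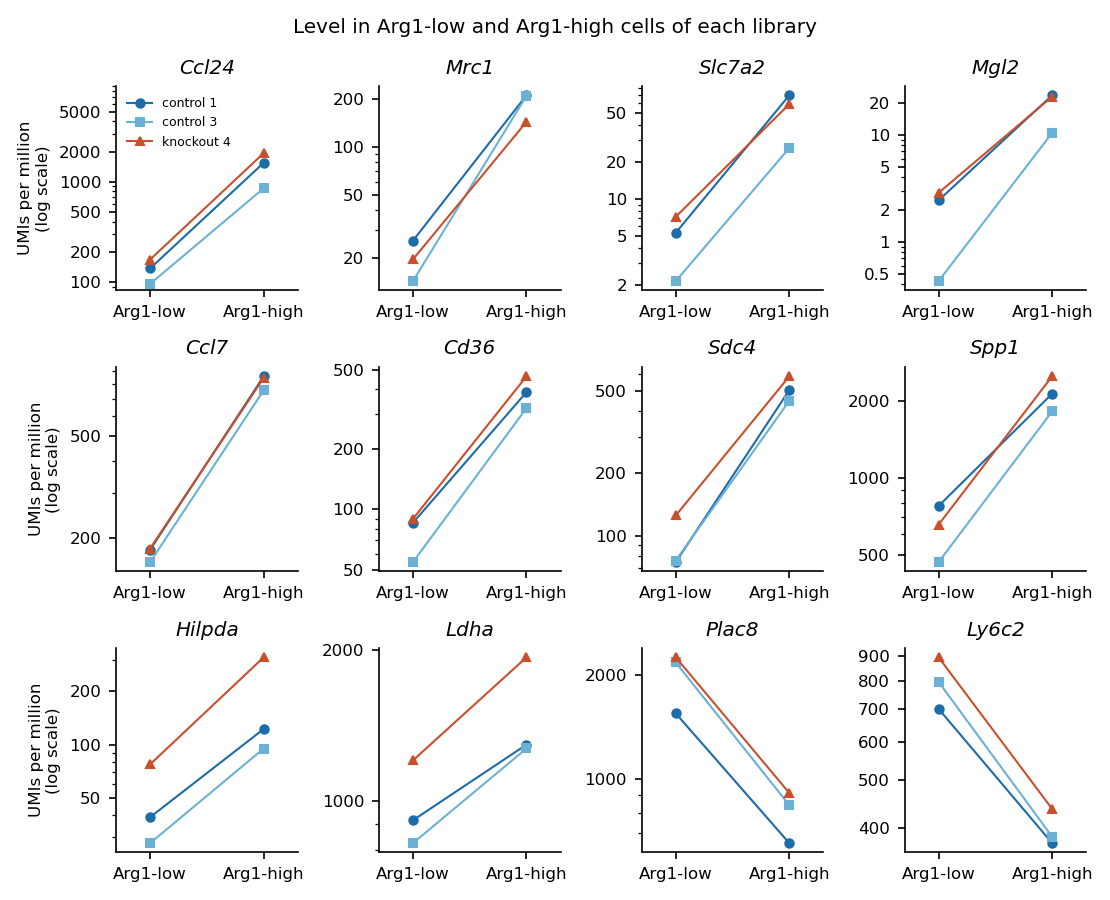
Each panel plots 1 gene's level in CPM (log axis) in Arg1-low and Arg1-high cells, with a line for each library (control 3 as labelled). Every line rises for the first 10 genes and falls for Plac8 and Ly6c2.

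The Arg1 threshold cut a continuous range. In all libraries together 78 members lay between 5 and 6 Arg1 UMIs per 10,000 and 112 non-members between 4 and 5. Just inside and just outside the line, Hilpda stood at 145 and 102 CPM, Egln3 at 37.5 and 38.6, Vegfa at 78.5 and 50.3, Thbs1 at 1179 and 909, Ccl24 at 224 and 550 and Mrc1 at 44.4 and 79.3. Hilpda and Thbs1 were higher inside the line in each library, and Mrc1 outside it in both control libraries. The libraries differed for the other 3: in the library labelled control 3, with 15 cells inside and 28 outside, Ccl24 stood at 255 and 149.8 and Vegfa at 23.7 and 65.5, against the order of the other libraries, and Egln3 was higher inside in knockout 4 alone.

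Within members, other genes followed the Arg1 level. Members with 5 to 15, 15 to 50 and at least 50 Arg1 UMIs per 10,000 numbered 177, 136 and 60 in control 1, 90, 94 and 26 in the library labelled control 3, and 354, 502 and 391 in knockout 4. The highest range held 16.1, 12.4 and 31.4% of each library's members. Over the 3 ranges Mrc1 stood at 107, 222 and 464 CPM in control 1, at 60.5, 244 and 605 in the library labelled control 3, and at 65.1, 104 and 250 in knockout 4. Hilpda stood at 99.95, 120 and 188, at 88.2, 94.5 and 124, and at 184, 271 and 454. Plac8 went the other way, at 715, 685 and 425, at 900.1, 868 and 518, and at 1215, 972 and 618. The order was the same in every library for these 3 genes.

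Not every gene kept that order. Cxcl3 climbed through the ranges in knockout 4, at 213, 364 and 1027 CPM, but stood at 65.7, 45.9 and 12.8 in control 1. Thbs1 stood at 361, 264 and 239 in control 1 and at 1853, 1803 and 2081 in knockout 4. Chil3 showed no common order. Of the 5 marker genes other than Arg1, at least 3 were detected in the same cell in 20.4, 23.3 and 42.4% of members and in 5.80, 5.71 and 14.5% of Arg1-low cells. At 4000 UMIs per cell the shares were 7.91, 9.77 and 29.4% against 2.07, 2.32 and 8.39%.

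**Figure D3:**
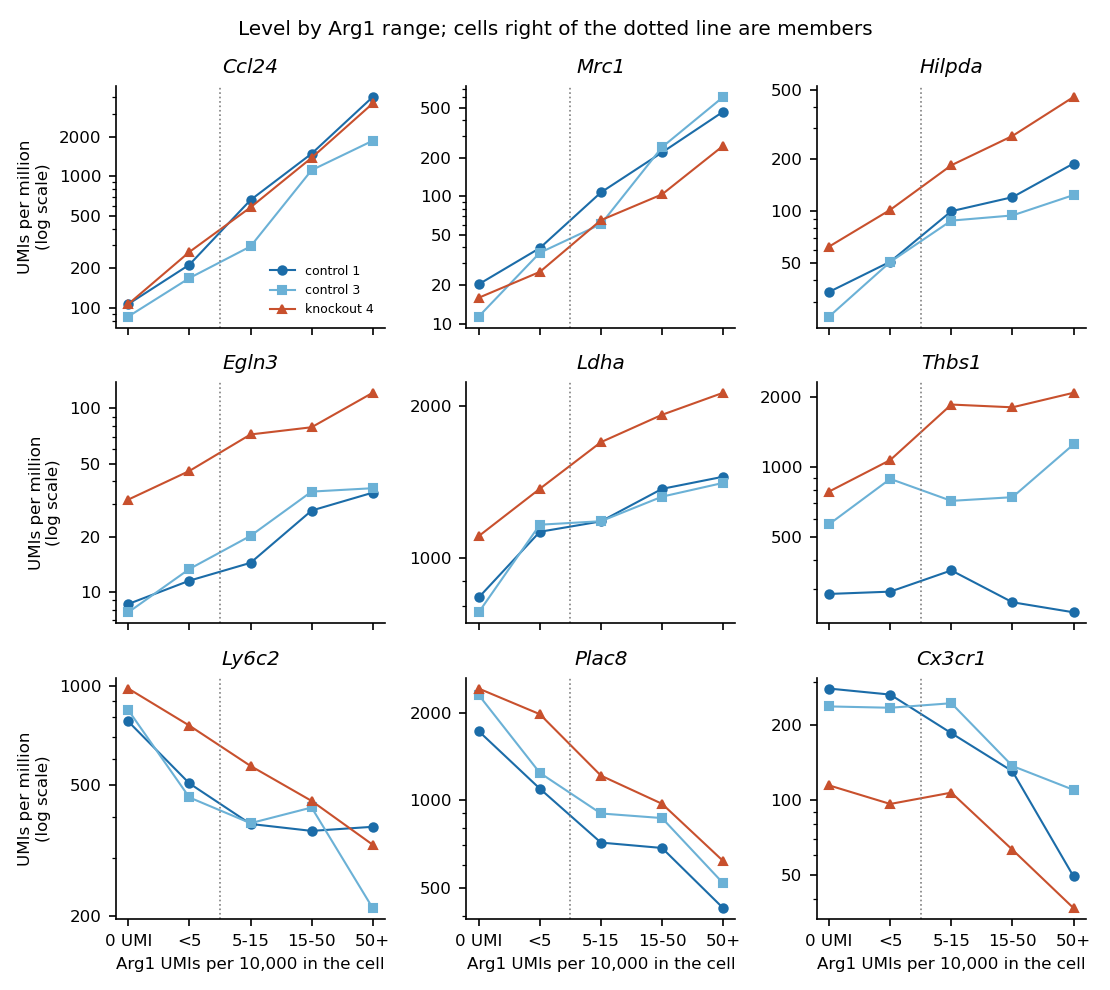
Each panel plots 1 gene's level in CPM (log axis) over 5 ranges of Arg1 per 10,000 UMIs among cells of the same gates, with a line for each library and a dotted line at the threshold. Ccl24, Mrc1 and Hilpda climb across the ranges in each library, Plac8 declines, and Thbs1 does not climb in control 1.

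The study's question, what loss of COMMD10 changes, was then asked within Arg1-high cells only. Summed UMIs were 3163352, 1921552 and 8135915. Of 10110 genes tested, 530 were higher in knockout 4 than in the controls (5.24%) and 528 lower (5.22%) by edgeR. The spread came from 1 residual degree of freedom, that between the 2 control libraries, one of them of doubtful label. The single knockout library adds none, its own spread is unmeasured and assumed like theirs, and every p below for knockout against control rests on this. So does every p of the interaction test given below. Its 1 residual degree of freedom is the difference between the 2 control libraries in how the classes differ. The fit took the same trended spread for all genes at their level, so a gene that varies more than most between libraries is tested too leniently. DESeq2, which estimates a spread for each gene, called 59 higher (0.584%) and 22 lower (0.218%). Scaled by library totals the edgeR calls were 372 higher and 742 lower. The knockout lay above both control libraries for 29.5% of all genes tested and below both for 44.3%.

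HIF targets had the highest share of calls among the 16 lists of gene function, cell type markers left aside. Of 19 testable genes 17 rose, 18 lay above both controls and 0 fell, with a median of 1.11 against -0.0016 over all genes. Against control 1 alone the median was 1.13, and against the library labelled control 3 alone 1.09. DESeq2 called 9 of the 19. Ero1l stood at 78.1, 78.6 and 261 CPM (1.82 ± 0.15, adjusted p = 7.17e-32). Bnip3 stood at 68.0, 73.9 and 218 (1.70 ± 0.15, adjusted p = 2.48e-26). Hilpda and Egln3, like Vegfa, were given with the rule and are counted in the list, so their differences are a description. Hilpda stood at 123, 95.2 and 311 (1.58 ± 0.14) and Egln3 at 22.8, 29.1 and 91.6 (1.93 ± 0.18). For these genes the control libraries stood close together and the knockout apart from both, and each also passed in DESeq2.

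The remaining HIF targets moved less or were rarer. Ankrd37, whose promoter is printed above, rose by 1.38 ± 0.16, Mxi1, an antagonist of Myc, by 1.67 ± 0.18, and Vegfa by 1.21 ± 0.17. Ak4, a mitochondrial adenylate kinase, was at 0.948, 3.64 and 20.4 CPM, from 3, 7 and 166 UMIs, and passed with adjusted p = 4.47e-15. Hif1a itself rose by 0.59 ± 0.13. Ddit4 and P4ha2 did not pass. In glycolysis 14 of 21 testable genes rose and 0 fell (median 0.60). Slc2a1 stood at 77.1, 73.4 and 198 (1.48 ± 0.15, adjusted p = 1.14e-19), Slc16a3 at 233, 231 and 549 (1.32 ± 0.13, adjusted p = 1.94e-20) and Tpi1 at 745, 796 and 1300 (0.84 ± 0.12, adjusted p = 6.66e-10).

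Cxcl3 had the lowest p of any gene (chr5:90786103-90789600, plus strand), at 49.3, 66.6 and 551 CPM (3.35 ± 0.15, adjusted p = 8.34e-111), and was detected in 7.51, 10.5 and 28.1% of members. Its paralogs on the same chromosome did not move alike: Cxcl2 rose by 0.80 ± 0.11 and Cxcl1 fell by 1.17 ± 0.24, with -1.57 against control 1 and -0.15 against the library labelled control 3. Ppbp stood at 15.2, 8.85 and 79.2 (2.73 ± 0.21) and Pf4 rose by 0.90. Of 18 testable chemokines 11 rose and 2 fell. Cxcl9, a T cell attractant induced by interferon gamma, had 80, 25 and 2 UMIs. The control 1 level was 103 times the knockout's with an exact counting interval of 27.6 to 864. That of the library labelled control 3 was 52.9 times the knockout's, with 13.2 to 461. These intervals cover counting error only, not the spread between cells or between libraries.

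Of 19 testable NRF2, heme and iron genes 7 rose and 0 fell (DESeq2 3). Hmox1, which degrades heme, stood at 1008, 1440 and 3516 CPM (1.61 ± 0.11, adjusted p = 2.03e-44), and Slc7a11, the cystine importer, at 77.4, 94.2 and 264 (1.71 ± 0.14, adjusted p = 8.43e-29). Prdx6 rose by 1.07 ± 0.13. Of 14 testable genes of inflammatory cytokines and NF-kB feedback 4 rose and 0 fell (DESeq2 2). Ptgs2, the inducible cyclooxygenase, stood at 85.0, 78.1 and 178 (1.20 ± 0.15), and Il1b rose by 0.65 ± 0.13. In the repair list 11 of 26 testable genes rose and 4 fell (DESeq2 2 and 0). Of these, Il1rn, the interleukin-1 receptor antagonist, stood at 122, 196 and 412 (1.48 ± 0.14) and Thbs1 at 305, 791 and 1909 (1.90 ± 0.12). Neither Il1rn nor Thbs1 passed in DESeq2, where their adjusted p values were 0.247 and 0.693, and the Thbs1 difference was 2.76 against control 1 and 1.40 against the library labelled control 3.

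The 6 marker genes given with the rule were all higher in the knockout's Arg1-high cells (DESeq2 4), while the alternative program did not move as a block. Arg1 itself, which the rule thresholds, stood at 2693, 2661 and 4735 CPM in members. Its place among the risers, here and in the arginine list below, is a description and supports nothing. Ccl24 rose by 0.76 ± 0.12, but by 0.43 against control 1 and by 1.29 against the library labelled control 3, and did not pass in DESeq2 (adjusted p = 0.889). Mrc1 stood at 211, 209 and 144 and fell by 0.47 ± 0.14 (adjusted p = 0.0162; DESeq2 0.504). Of 17 testable alternative activation genes 3 rose and 1 fell, against the 5.24 and 5.22% of all genes. Socs2, Cish, Egr2, Pdcd1lg2 and Retnla did not pass, with differences from -0.33 to 0.19. Of 18 testable arginine and polyamine genes 5 rose, Arg1 among them, and 4 fell, and in DESeq2 3 rose and 0 fell. The mitochondrial arginase gene Arg2 rose (6.95, 8.85 and 31.7; 2.12 ± 0.27), as did Smox by 1.65 ± 0.15, Sat1, which acetylates polyamines, by 0.65 and Ass1, which rebuilds arginine from citrulline, by 0.62. Odc1, Srm, Sms and the importer Slc7a1 fell, Odc1 from 52.2 and 55.2 to 32.2 (-0.65 ± 0.19, adjusted p = 0.0108).

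Macrophage maturation genes were lower in the knockout's Arg1-high cells. Of 18 testable genes 11 fell and 0 rose, 15 lay below both controls, and the median was -0.52, or -0.56 against control 1 and -0.43 against the library labelled control 3. DESeq2 called 2. Cx3cr1, the fractalkine receptor, stood at 142, 179 and 65.1 CPM (-1.21 ± 0.16, adjusted p = 1.22e-11). Ms4a7 stood at 286, 263 and 144 (-0.85 ± 0.14, adjusted p = 3.86e-07) and C1qa at 297, 323 and 179 (-0.71 ± 0.14, adjusted p = 4.46e-05). Apoe did not pass, at 4212, 5820 and 4229. Lpl, lipoprotein lipase, stood at 928, 740 and 271 (-1.54 ± 0.14, adjusted p = 1.51e-25) and Trem2, the lipid receptor, at 399, 322 and 199 (-0.78 ± 0.14).

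Other genes that fell included Ccnd1, cyclin D1, at 24.3, 27.6 and 2.09 CPM (-3.52 ± 0.36, adjusted p = 3.07e-20), Igf1 at 49.0, 38.5 and 17.7 (-1.25 ± 0.21) and Gdf15 at 42.7, 41.1 and 15.2 (-1.38 ± 0.22). H2-DMa, which loads peptide on class II molecules and was not in the rule, stood at 135, 128 and 54.0 (-1.21 ± 0.17, adjusted p = 1.18e-10), though class II levels were capped by the rule. Lyz2, the locus of the Cre driver, stood at 12514, 9246 and 5527 (-0.90 ± 0.10). Cebpb fell by 0.91 over both controls but stood at 1123, 340 and 371, with -1.49 against control 1 and 0.25 against the library labelled control 3. Igkc, an immunoglobulin gene, was also lower, with 47, 6 and 1 UMIs. Of 11 testable hepatocyte markers Alb and Fabp1 fell, the latter with 16, 58 and 15 UMIs, and Trf rose, at 84.4, 106 and 138 CPM (0.63 ± 0.15). The median of that list was 0.65 against control 1 and -1.12 against the library labelled control 3.

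Of 12 testable neutrophil-like monocyte genes 8 rose and 0 fell in the knockout (DESeq2 3). S100a8 stood at 319, 342 and 742 CPM in Arg1-high cells (1.25 ± 0.13, adjusted p = 1.91e-19), against 756, 306 and 2186 in the Arg1-low cells of the same libraries. S100a9 stood at 16.1, 48.9 and 90.2 (1.67 ± 0.18; 2.57 against control 1 and 1.00 against the library labelled control 3). Cells with at least 4 neutrophil markers were 1.61, 0.952 and 1.28% of members. Without them and the cells with lymphocyte markers 5 of the 12 rose, while the higher calls over all genes went from 530 to 326. The median of the list was 0.85 without these cells and 0.82 with them. Ly6C-high identity genes rose in 8 of 19 testable cases and fell in none (DESeq2 2). Among the risers were Thbs1, given with the rule, and Vcan at 172, 244 and 415 (1.09 ± 0.14, adjusted p = 2.76e-13). The median of this list was 0.59 against control 1 and 0.24 against the library labelled control 3.

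**Figure D4:**
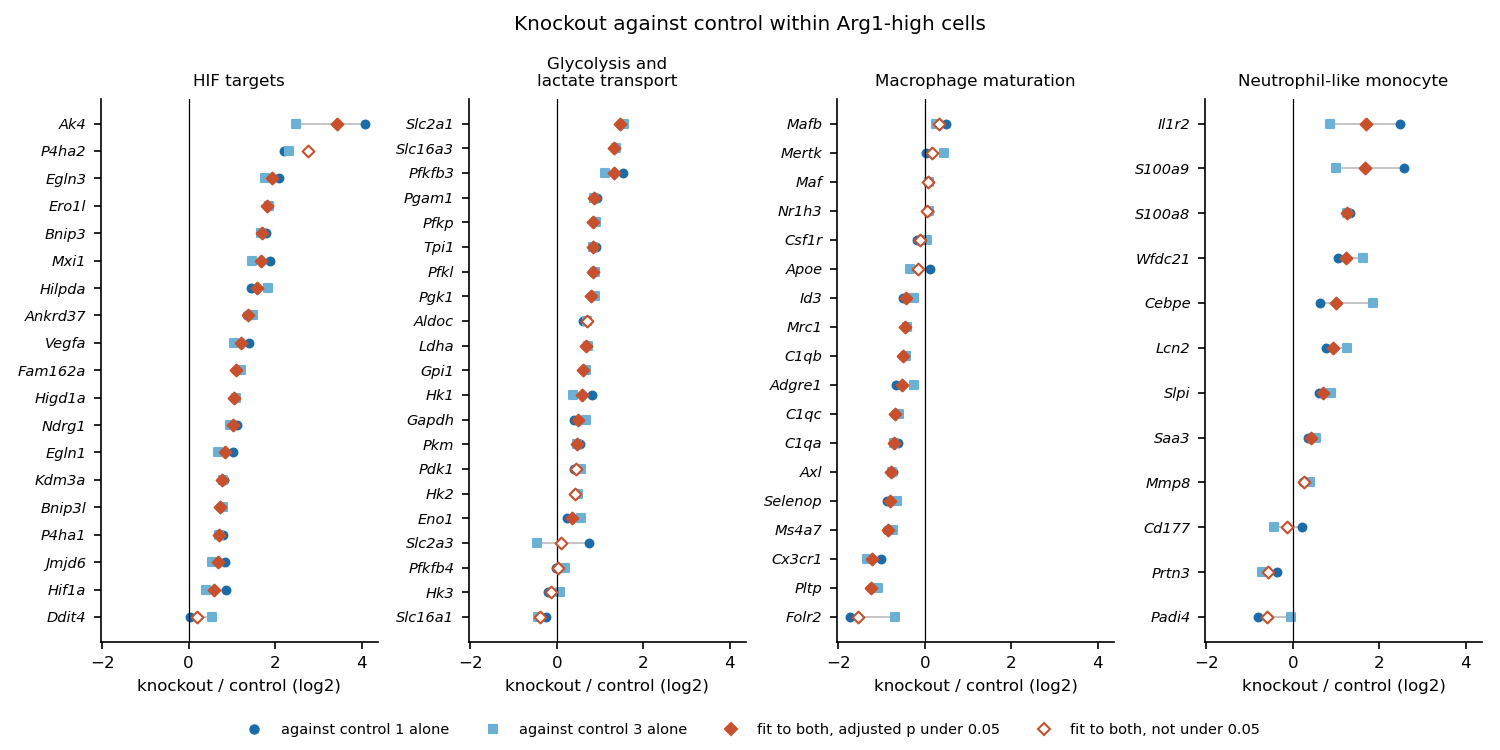
Rows are the testable genes of 4 lists and the horizontal axis is the knockout over control difference within Arg1-high cells (log2), against control 1 alone (circles), the library labelled control 3 alone (squares) and both (diamonds, filled where the adjusted p was under 0.05). Values against 1 library carry a prior count of 2 and no test. The diamonds of all 19 HIF targets lie to the right of 0, and those of 14 of 18 macrophage maturation genes to the left.

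The knockout difference of most genes was not shown to differ between Arg1-high and Arg1-low cells. In Arg1-low cells 3 of 13114 genes were higher (0.0229%) and 4 lower (0.0305%, or 0.0534% in either direction) by edgeR, whose spread there was wider. Cxcl3, Ifitm1 and Egln3 rose, by 2.97, 2.06 and 2.08, and Igkc, Igha, Jchain and Cxcl9 fell. DESeq2 gave 31 (0.236%) and 10 (0.0763%), or 0.313% in either direction. Over all 13114 genes tested in Arg1-low cells, the knockout lay above both controls for 4317 and below both for 4945. HIF targets had a median of 0.72 in Arg1-low cells, and 19 of 20 testable genes lay above both controls. Macrophage maturation genes had a median of -0.41 in Arg1-low cells, and 16 of 20 lay below both controls. Neutrophil-like monocyte genes had a median of 0.74 there, and 13 of 16 lay above both. A test of the interaction found 61 of 12850 genes with a higher (0.475%) and 56 with a lower knockout difference in Arg1-high cells (0.436%), against 2 (0.0156%) and 0 in DESeq2. Of 20 testable HIF targets 3 differed, Mxi1, Ero1l and Ndrg1, by 0.99 ± 0.18, 0.58 and 1.11 ± 0.25, though 0 of them passed in DESeq2, and of 22 glycolysis genes 0 differed.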

How the data were processed

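Per the submitters' processing notes, the authors made the deposited UMI count matrices with bcl2fastq and Cell Ranger 3.0.2 on GRCm38. The files hold raw counts of 53802 features, of which 99.8% matched GENCODE M21. The 3 libraries held 4814, 8109 and 5152 barcodes and 30302932 to 72867668 UMIs. No doublet caller was used and doublets were not removed. An alternative left out cells over 2 times the library's median UMIs. The result for 1 gene is not reported here.

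Counts were summed per library and class (Python 3.11.15) and tested with edgeR 4.0.16 (quasi-likelihood, TMM scaling, filterByExpr, Benjamini-Hochberg adjustment, threshold 0.05) in R 4.3.3, with the library as a block between classes. DESeq2 1.42.0 was the other tool. Values against a single control library carry no test. Members, markers and gene lists were chosen with earlier results of these data known. Named genes were the 15 highest and 10 lowest differences between classes above 20 CPM, up to 15 in each direction by p between knockout and controls, 10 by p for the interaction, and the 4 lowest p of each list. Other genes named in the text were chosen after their values were seen. On simulated counts with 200 changed genes, the knockout comparison recovered 93.3% of those changed by log2 1. Of its calls 3.81% were false, against 4.72% between classes and 6.23% for the interaction, above the threshold. The simulated counts took the fit's own trended spread in every library, and only genes above 20 CPM were changed. They cannot show how many of the real calls are false where a gene, or the knockout library, varies more than that.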

Additional observations from a re-analysis of the deposited data

Results flagged for a closer look

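The 10 genes with the lowest p of the edgeR interaction test are given by how their knockout difference differed between Arg1-high and Arg1-low cells. That test has 1 residual degree of freedom, from the 2 control libraries, and the spread of the single knockout library is unmeasured. Differences are log2, Arg1-high minus Arg1-low, and levels are CPM in the order control 1, the library labelled control 3, knockout 4. Pf4 differed by 1.20 (adjusted p = 1.06e-14): it stood at 470, 537 and 885 in Arg1-high and at 137, 125 and 105 in Arg1-low cells. Thbs1 differed by 0.93 (adjusted p = 1.46e-09), and only these 2 of the 10 also passed in DESeq2. Cxcl10 differed by 1.30, standing at 51.5, 46.3 and 102 in Arg1-high and at 102, 103 and 90.4 in Arg1-low cells. Hspa1a differed by 1.43, Fabp4 by 1.65, Rsad2 by 1.17 and Ccl3 by 0.92. S100a8 differed by -0.92 and Saa3 by -1.02, with the knockout's Arg1-low cells at 2186 and 371. Hba-a1, a globin gene of red cells, differed by 7.13 from 0, 1 and 23 UMIs in Arg1-high cells, and by -3.79 with cells thinned to 4000 UMIs.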

How the results depend on the processing

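The Arg1-high share moved to 6.22, 1.91 and 23.1% at 10 Arg1 UMIs per 10,000, to 7.90% in control 1 and 24.7% in the knockout at 3 UMIs, and to 11.2, 3.88 and 30.0% with cells thinned. Between classes, 735 genes were higher and 722 lower in DESeq2, and 257 and 340 with no replicate block. Leaving out each library gave 807 to 1071 higher and 961 to 1209 lower. Direction and call held for 1080 of 1149 values of 77 named genes between classes. In the other comparisons values with a control left out carry no test. Such a value was counted as held if it kept its direction and moved by less than its standard error. By this count 700 of 818 held for the knockout comparison, 520 of 634 in Arg1-low cells and 562 of 715 for the interaction. Another 71, 45 and 49 untested values kept their direction but moved further. Without knockout 4, 1209 genes fell between classes. Of the listed chemokines 4 then fell, against 1 with all libraries, and of the HIF targets and the alternative activation genes 2 each, against 1 each. Within Arg1-high cells the knockout calls, 530 and 528, became 59 and 22 in DESeq2, 320 and 294 at 3 Arg1 UMIs, 263 and 226 when thinned, 326 and 288 without cells with lymphocyte or neutrophil markers (chosen after seeing the data), and 335 lower without high-UMI cells. The interaction gave 2 and 0 in DESeq2, 24 and 10 when thinned, 27 and 7 without high-UMI cells, 100 lower with library totals and 30 lower with no filter. In Arg1-low cells DESeq2 gave 31 and 10, no filter 148 and 117, and leaving out either marker-positive or high-UMI cells gave 1 and 0.

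Directions turned for Cebpb (0.25 without control 1, -1.49 without the library labelled control 3) and, between classes, for Igha (0.24) and Igkc (0.44) without marker-positive cells, Cd74 (-1.87 against all other cells) and Commd10 (0.00010 at the higher threshold, 0.098 thinned, -0.18 to 0.054 on leaving out a library). In the interaction they turned for Hba-a1 (-3.79), S100a9 (1.01), Ube2c (2.90) and Egln3 (0.18) when thinned, S100a9 without marker-positive cells (0.59) and without the library labelled control 3 (0.63, against -2.23 without control 1), Egln3 likewise (0.14 and -0.36), Retnla (-1.56) and Vegfa (-0.033) without control 1, against 2.23 and 1.04 without the other control, and Lyz2 (-0.00086) with library totals. The cause was not tested.

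No paired analysis was possible because the knockout and control libraries share no replicate number. With either control left out, the knockout comparison has 1 library on each side and no test.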
